A study of Mus musculus with 36 samples.

Results

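IAA day 4 and DMSO day 6 are 2 groups of 3 RNA-seq libraries each, 6 of the 36 libraries of a series on mouse embryonic stem cells. The cells were sampled at days 0, 2, 4 and 6 under DMSO, the compound BPK25 or IAA. DMSO is the solvent in which compounds are commonly given, BPK25 is known here by its code name alone, and IAA (auxin) makes cells with a plant-derived degron system destroy a tagged protein. By its title the series concerns NuRD, a chromatin remodelling complex, and CTCF sites. Not stated in the labels are the tagged protein, the IAA dose, the event from which days are counted, the strain, and whether DMSO and IAA cells were 1 clone. All groups share the line name mESC, a serum replacement medium with LIF, and the same RNA and library kits. The labels also say that cells were typically kept on gelatin with irradiated mouse fibroblasts, so fibroblast RNA can be present in any library. The labels leave unsaid whether replicates came from separate cultures, so the p-values below measure only how these libraries vary, and that variation may be technical.

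The pair was chosen from the expression values themselves. The root mean square difference of group mean log2 CPM (normalised read count, put on 1 scale for all libraries) over 17394 tested genes was smallest between IAA day 4 and DMSO day 6, at 0.525 log2 units. DMSO day 4 lay at 0.619, DMSO day 2 at 0.945 and DMSO day 0 at 0.96. These distances picked the pair and are descriptions. DMSO day 6 was not the nearest group of all, since BPK25 day 6 lay at 0.485 and IAA day 6 at 0.458. Taken gene list by gene list, the nearest DMSO day was day 6 in 36 lists, day 4 in 10 and day 0 in 1. The lists nearest to day 4 were those of BMP and Id, FGF, aryl hydrocarbon receptor, interstitial matrix, basement membrane, fibroblast, endoderm factor, Polycomb, DNA methylation and immediate early genes, and the list nearest to day 0 was that of the gastrokines. The stage was therefore matched over all genes, and for these lists DMSO day 6 was not the nearest DMSO day.

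**Figure D1:**
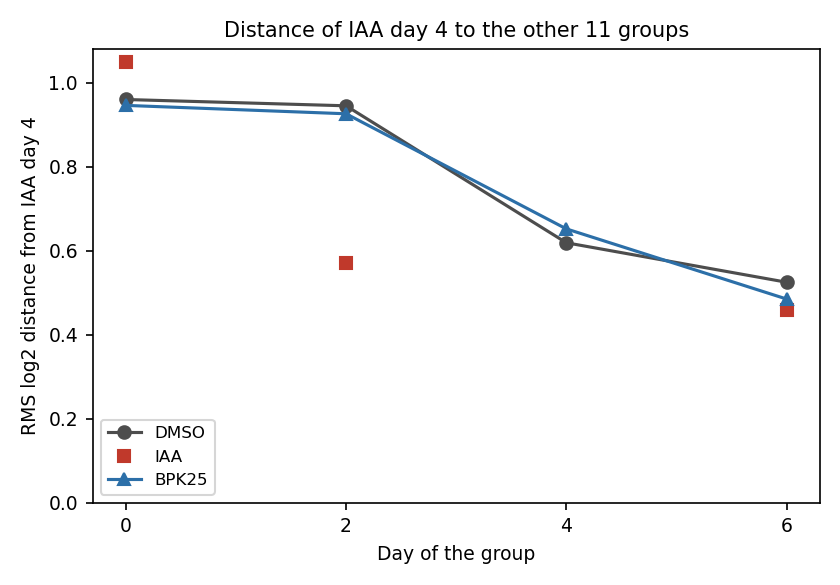
Root mean square log2 distance of the IAA day 4 group mean from each of the other 11 group means (y axis, log2 units) by the day of that group (x axis); circles are DMSO, triangles BPK25 and squares IAA. Among DMSO groups the distance was smallest at day 6 (0.525) and largest at day 0 (0.96).

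Embryonic stem cells that leave pluripotency lower the factors that hold that state and switch on genes of the germ layers and of the yolk sac. Signals of the BMP, FGF and Wnt families steer that choice, and secreted antagonists set how far each ligand acts. NuRD joins a nucleosome remodeller to histone deacetylases and helps to silence genes during this transition, while CTCF and cohesin fold the genome into loops. Imprinted genes, expressed from the copy of 1 parent, include a group that controls growth of the fetus and placenta.

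The 6 libraries held 9762112 to 16497799 counts over genes, against 6621288 to 16497799 over all 36. No 2 replicates were identical, and between replicates chi-square divided by its degrees of freedom ran from 1.48 to 2.97, more than sampling noise gives. Mitochondrially encoded mRNAs took 2.4, 2.42 and 2.45% of counts in the IAA day 4 libraries and 1.71, 1.67 and 1.71% in the DMSO day 6 libraries, with no overlap (exact permutation test, two-sided p = 0.1, the smallest that 3 against 3 can give). Together Col1a1, Col1a2 and Col3a1, collagens made by fibroblasts and by differentiating cells alike, stood at 37.7, 36.9 and 39.6 CPM against 61.3, 63.4 and 57.9 CPM, again with no overlap (exact permutation test, p = 0.1). The pluripotency factor gene Pou5f1 was still detected, at 269, 268 and 269 CPM in IAA day 4 and 218, 196 and 209.8 CPM in DMSO day 6, below the 833 ± 21 CPM of DMSO day 0. This 1 gene does not show that the cells were still pluripotent. Over the core pluripotency list IAA day 4 lay 2.09 log2 units from DMSO day 0 and 0.515 from DMSO day 6. IAA and DMSO already differed at day 0, where 7736 of the tested genes (44.5%) passed the test, so values from that day stand beside some results. Here ± is the SD over 3 libraries for a level in CPM, and for a log2 fold change it approximates a standard error (the change over the root of its F value). Where 3 values stand against 3 others, those of IAA day 4 come first, and a value in brackets after a gene is its log2 fold change. In bulk RNA, fewer cells of a type and less RNA per cell cannot be told apart.

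Among genes of at least 5 CPM in 1 group, the lowest fold changes were those of Gkn1, Gkn2 and Mucl3, all of the gastrokine and stomach-type secreted list, for which DMSO day 0 was nearer (distance 3.97) than DMSO day 6 (5.87). Gkn1 and Gkn2 encode gastrokines, small proteins secreted by the stomach lining, and they are neighbours on chromosome 6 that are read in opposite directions (GENCODE M21, GRCm38: Gkn1 at chr6:87345650-87350942 on the minus strand, Gkn2 at chr6:87373357-87379497 on the plus strand). Cyp1a1, on chromosome 9 (chr9:57687928-57703824, plus strand), encodes a drug-metabolising enzyme that the aryl hydrocarbon receptor induces. The 250 bases before the RefSeq start of these 3 genes (GRCm38.p6, 5′ to 3′ on the strand of the gene) are printed because their transcripts were at or near 0 counts in IAA day 4. In the Gkn1 window (chr6:87350916-87351165) capitals mark AGATAA, the letters bound by GATA factors. In the Gkn2 window (chr6:87373115-87373364) they mark AGATAA and TATAAA, the TATA box. In the Cyp1a1 window (chr9:57697363-57697612) capitals mark GCGTG, the core to which the aryl hydrocarbon receptor binds. That window lies inside the GENCODE interval of Cyp1a1, which begins upstream of the RefSeq start.
Gkn1: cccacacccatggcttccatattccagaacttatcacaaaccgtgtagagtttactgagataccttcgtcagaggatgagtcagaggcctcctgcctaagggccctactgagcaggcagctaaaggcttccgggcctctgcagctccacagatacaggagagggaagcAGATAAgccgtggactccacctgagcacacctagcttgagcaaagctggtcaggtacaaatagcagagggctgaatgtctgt
Gkn2: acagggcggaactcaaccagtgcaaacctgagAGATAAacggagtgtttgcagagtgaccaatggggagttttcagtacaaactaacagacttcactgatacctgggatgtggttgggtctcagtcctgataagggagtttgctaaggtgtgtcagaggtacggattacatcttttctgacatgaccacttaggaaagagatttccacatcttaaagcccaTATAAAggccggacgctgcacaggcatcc
Cyp1a1: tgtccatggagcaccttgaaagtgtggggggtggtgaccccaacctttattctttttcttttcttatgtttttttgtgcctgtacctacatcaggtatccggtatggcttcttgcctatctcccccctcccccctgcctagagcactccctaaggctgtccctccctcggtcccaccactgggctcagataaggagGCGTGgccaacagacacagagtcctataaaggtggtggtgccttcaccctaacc
Searched on both strands, AGATAA occurred once in each of the 3 windows, and 9.99% of all 32851 RefSeq windows of this length hold it. TATAAA occurred in the Gkn2 and Cyp1a1 windows, with its first base 29 and 30 bases before the start, and 12.4% of all windows hold it. GCGTG occurred in the Cyp1a1 window, 54 bases before the start, and 28.2% of all windows hold it. A match is a description of letters, not a binding site, and the motifs were chosen after the values were seen.

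Gkn1 had 0 counts in the 3 IAA day 4 libraries together and 4003 in the 3 DMSO day 6 libraries, at 105, 104 and 105 CPM. Against a floor of 3 counts over the group it was at least 1190-fold lower in IAA day 4, and leaving out any 1 IAA library still left at least 750-fold. Gkn2 stood at 0.656, 0.185 and 0.316 CPM in IAA day 4 and 106, 99.9 and 110.2 CPM in DMSO day 6, a log2 fold change of -8.07 ± 0.15. Every IAA library lay far below every DMSO library for both genes. In DMSO the 2 genes were nearly level from day 0 to day 4 (Gkn1 16.4, 20.9 and 19.4 CPM on average) and stood at 105 CPM at day 6. In IAA they were at 3.8 CPM for Gkn1 and 3.79 CPM for Gkn2 at day 0, already lower than in DMSO (log2 fold changes -2.14 ± 0.16 and -2.07 ± 0.16). IAA day 4 lay below all 12 DMSO libraries of any day, of which the lowest held 15.9 CPM of Gkn1.

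Mucl3, which encodes a mucin-like protein, stood at 1.22, 0.648 and 0.711 CPM in IAA day 4 and 105, 108 and 106 CPM in DMSO day 6 (log2 fold change -6.94 ± 0.11). Mgp, the gene of matrix Gla protein, an inhibitor of calcification, stood at 0.188, 0.0926 and 0.079 against 6.96, 8.42 and 6.63 CPM (log2 fold change -5.81 ± 0.35). Neither gene overlapped between the groups. The gene of the membrane mucin Muc1 went the other way, with 2.63, 1.76 and 3.08 CPM in IAA day 4 and 0.928, 0.396 and 0.736 CPM in DMSO day 6 (log2 fold change 1.77 ± 0.33). Of the 6 tested members of the gastrokine and stomach-type secreted list, 1 was higher, 4 were lower and 1 did not pass, where 23.8% and 22.8% of all tested genes were called higher and lower. The list was written with earlier results of these data known, so its counts describe its members and test nothing. It also holds Mgp, a matrix protein gene that its name does not describe. The summed level of all 11 genes of the list ran from 3.8 to 5.44 CPM in IAA day 4 and from 322 to 330 CPM in DMSO day 6, with Muc5ac also at 0 counts in IAA day 4, and Tff2 and Tff3 at 0 counts in DMSO day 6. Among the genes called here, the adjusted p was at most 1.44e-05 (edgeR quasi-likelihood F test, Benjamini-Hochberg adjustment).

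**Figure D2:**
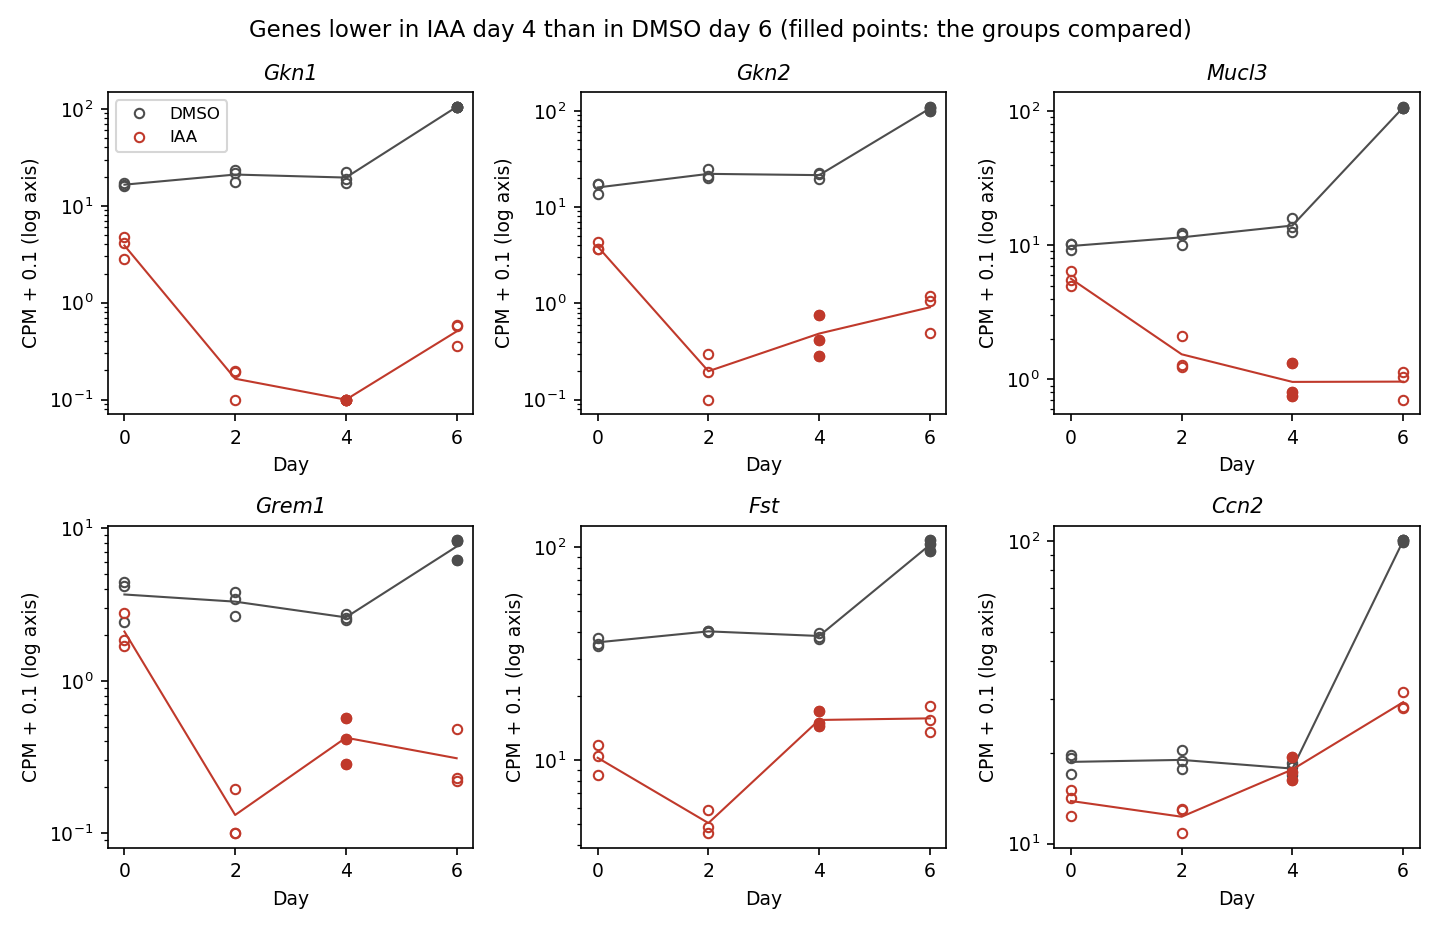
Level of 6 genes in each DMSO library (grey) and IAA library (red) at days 0, 2, 4 and 6 (x axis), as CPM + 0.1 on a log axis; lines join the group means and filled points are the groups compared. Gkn1, Gkn2, Mucl3, Grem1 and Fst in IAA day 4 lay below every DMSO library, while Ccn2 in IAA day 4 (17.5 CPM) lay at the level of DMSO day 4 (17.6 CPM).

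Across all genes, matching the stage left a large difference. Of 17394 tested genes, 4133 (23.8%) were higher in IAA day 4 and 3964 (22.8%) lower, 8097 in all (46.6%). Most differences were small, and 717 higher genes (4.12%) and 596 lower genes (3.43%) differed at least 2-fold. The median log2 fold change of all tested genes was 0.00219. The 2 groups did not overlap for 9368 genes (53.9%). Against DMSO of the same day, IAA day 4 differed in 9021 genes (51.9%), a comparison that shares the IAA libraries, with 1097 (6.31%) higher and 677 (3.89%) lower at least 2-fold.

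The called genes were then set against the whole DMSO course. IAA day 4 lay above all 12 DMSO libraries in 2350 genes called higher (29% of all called) and below all 12 in 1826 genes called lower (22.6%), which are 13.5% and 10.5% of the tested genes. The remaining 3921 (48.4%) lay within the range that DMSO covered at some day. Within that range, 2481 genes (30.6% of all called) differed against the DMSO change from day 0 to day 6 and 357 (4.41%) with it. Outside the range, 390 (4.82%) differed against that change and 2430 (30%) with it. Another 2439 (30.1%), inside or outside, had no called DMSO change. DMSO day 6 enters both differences, so the split is a description and tests nothing.

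A second pair offset by the same 2 days, IAA day 2 against DMSO day 4, shares no library with this one. There 6734 genes (38.7%) passed. Of the genes called in the later pair, 4154 (51.3%) were called in the same direction in the earlier one, where they made up 61.7% of the calls, and 320 (3.95%) in the opposite direction. Across all tested genes Pearson's r of the log2 fold changes was 0.59, a description over genes, which are not independent replicates. With IAA day 0 against DMSO day 0 the same-direction share was 44.2% (46.2% of the day 0 calls), the opposite share 10.3% and r 0.326. In all, 2398 genes were called the same way in the 3 pairs, 1195 higher and 1203 lower.

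**Figure D3:**
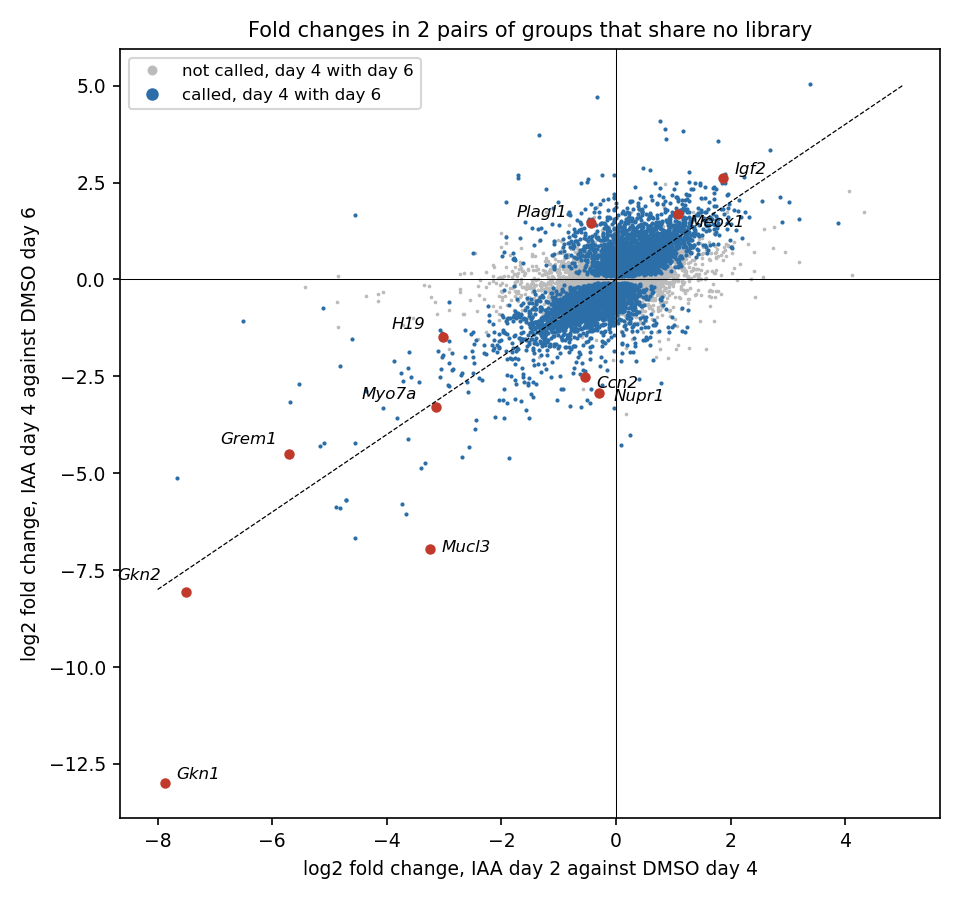
Log2 fold change of each tested gene between IAA day 2 and DMSO day 4 (x axis) and between IAA day 4 and DMSO day 6 (y axis); blue genes were called in the later pair, grey genes were not, red points are the genes named beside them, and the dashed line marks equal values. Gkn2, Grem1 and Myo7a were low in both pairs, while Ccn2 and Nupr1 were low mainly in the later pair; the plotted value of Gkn1, which had 0 counts in IAA day 4, depends on the prior count.

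Genes that lay outside the range of all DMSO libraries and were called the same way in the 3 pairs include Igf2, described below, and 7 others with the highest fold changes. Gpx2, a glutathione peroxidase of epithelia, stood at 32.2, 30.6 and 31.3 CPM in IAA day 4 and 9.51, 7.03 and 9.85 CPM in DMSO day 6 (log2 fold change 1.81 ± 0.11), and at day 0 it already differed by 2.85 ± 0.39. Tbx20, a transcription factor gene of the heart, stood at 5.81, 5.46 and 5.05 against 1.16, 2.28 and 1.38 CPM (1.82 ± 0.20), and the difference was 1.86 ± 0.19 in the earlier pair and 1.93 ± 0.27 at day 0. The groups did not overlap for either gene. Plet1, a surface protein gene of early epithelia and trophoblast, differed by 1.89 ± 0.09, Dmkn, a secreted protein gene of the skin, by 2.05 ± 0.13, and the iron-binding protein gene Meltf by 1.90 ± 0.20. The natriuretic peptide clearance receptor gene Npr3 differed by 1.75 ± 0.13 and the tight junction gene Cldn7 by 1.71 ± 0.14. The gene model Plet1os overlaps exons of Plet1 on the other strand, and the sources used here do not give whether counting used strand. The largest adjusted p of these 7 genes was 9.33e-11 (edgeR quasi-likelihood F test, Benjamini-Hochberg adjustment).

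Of 5 genes of secreted BMP or activin antagonists described here, 4 were lower in IAA day 4 and Chrd did not pass, while the Id genes, targets of BMP, were called in both directions. Gremlin-1 (Grem1) and noggin (Nog) bind BMP ligands. Grem1 stood at 0.469, 0.185 and 0.316 CPM in IAA day 4 and 8.12, 6.14 and 8.28 CPM in DMSO day 6 (log2 fold change -4.51 ± 0.28), and Nog at 0.281, 0.926 and 0.474 against 7.71, 9.71 and 7.45 CPM (-3.85 ± 0.26). No IAA day 4 library reached any of the 12 DMSO libraries for either gene. Bmper, which encodes a BMP-binding protein of blood vessels, stood at 7.22, 5.09 and 5.92 against 40, 39.5 and 34.4 CPM (-2.65 ± 0.10). Fst encodes follistatin, which traps activin, and stood at 14.8, 14.3 and 16.9 against 103, 96.1 and 108 CPM (-2.73 ± 0.07). The 4 genes were lower in the earlier pair too. There Grem1 had 1 count in IAA day 2 against 69 in DMSO day 4, a rate lower by 71.1 times (95% exact interval 12.3 to 2850, counting error only), and Nog, Bmper and Fst had log2 fold changes of -2.47 ± 0.46, -2.60 ± 0.15 and -2.93 ± 0.11. The antagonist gene Chrd stood at 0.844, 0.555 and 1.74 against 1.27, 1.09 and 0.552 CPM and did not pass (0.09 ± 0.37).

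Among the ligands, Bmp2 was lower (-0.49 ± 0.12), Bmp5 higher (1.75 ± 0.38, 1.31, 1.48 and 1.5 against 0.464, 0.396 and 0.368 CPM), and Bmp4 did not pass (-0.23 ± 0.17). The Id genes encode inhibitors of bHLH transcription factors and are the classic BMP targets. Id2 stood at 56.7, 59.7 and 57.9 CPM in IAA day 4 and 44.5, 43.2 and 45.3 CPM in DMSO day 6 and was higher (0.39 ± 0.06), Id4 was lower (-1.14 ± 0.18), and Id3 did not pass (-0.08 ± 0.11). Id1 was higher by a small amount (0.19 ± 0.07), a call lost without IAA day 4 replicate 1 or 3 or DMSO day 6 replicate 2 (0.17, 0.16 and 0.13) and with DESeq2 (0.20). Over the BMP and Id list, 7 of 23 tested genes were higher, 7 were lower and 9 did not pass, where 23.8% of all genes were higher and 22.8% lower. The list had a median log2 fold change of 0.08, beside 0.00219 for all genes. Without IAA day 4 replicate 3 that median was -0.03. No adjusted p among genes called in both paragraphs on BMP, Id1 aside, was above 0.000513 (edgeR quasi-likelihood F test, Benjamini-Hochberg adjustment).

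Other genes among the 15 lowest were of several kinds. Fgf3, an FGF ligand of the early embryo, had 3 counts in the 3 IAA day 4 libraries and 224 in the 3 DMSO day 6 libraries, a rate lower by 66.7 times (95% exact interval 22.5 to 326, counting error only). Without IAA day 4 replicate 1 the ratio was 138 and without replicate 3 41.9. Cyp1a1, whose window is printed above, had 3 counts against 232, a rate lower by 69.1 times (interval 23.3 to 337). Without IAA day 4 replicate 1 the ratio was 47.5 and without replicate 2 it was 142. Both genes were near the floor of detection in IAA day 4 and clearly counted in DMSO day 6. The receptor gene Ahr (0.79 ± 0.13) and 2 other genes induced through it, Cyp1b1 (1.05 ± 0.08) and Nqo1 (0.80 ± 0.09), were higher, with Cyp1b1 at 30.7, 33 and 33.7 CPM in IAA day 4 and 16.2, 14.6 and 15.9 CPM in DMSO day 6. Cyp1a1 thus differed in direction from the other 3 genes, and each of the 3 lay above all DMSO libraries.

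Myo7a, a motor protein gene of the inner ear, stood at 7.5, 7.31 and 7.5 CPM in IAA day 4 and 70.7, 75.3 and 72.1 CPM in DMSO day 6 (-3.28 ± 0.07). In DMSO its level lay at 122 CPM at day 0 and 85.2 CPM at day 4, and IAA day 4 lay below every DMSO library. The thrombomodulin gene Thbd (-4.86 ± 0.27) and the protein C receptor gene Procr (-3.11 ± 0.15) encode partners in the control of clotting and were both lower. Procr stood at 1.59, 1.48 and 2.53 against 15.5, 19.2 and 15.4 CPM, and Thbd at 0.375, 0.278 and 0.632 against 13.6, 11.8 and 13.6 CPM. F3, the gene of tissue factor, which starts clotting, was lower too (-1.72 ± 0.06). The calcium-binding protein gene S100a6 (-3.58 ± 0.28) and the bHLH gene Tcf23 (-3.11 ± 0.18) were lower. Trpc5os, annotated as protein-coding and named for the strand opposite the channel gene Trpc5, was lower (-4.22 ± 0.21). Its exons overlapped those of no other tested gene, and the strand setting of the counting was not stated. At most, the adjusted p among the genes called here, Fgf3 and the aryl hydrocarbon receptor genes included, was 1.51e-06 (edgeR quasi-likelihood F test, Benjamini-Hochberg adjustment).

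YAP is the effector of the Hippo pathway, through which cells sense crowding and tension. Its target genes Ccn2 and Ccn1 differed in opposite directions. Ccn2 (connective tissue growth factor) stood at 16.1, 17.1 and 19.2 CPM in IAA day 4 and 99.1, 100.5 and 100.4 CPM in DMSO day 6 (-2.51 ± 0.06), and Ccn1 at 63.6, 55 and 60.5 against 31.4, 35.3 and 33.4 CPM (0.85 ± 0.07). The groups did not overlap for either gene, and the genes stood on opposite sides. Crim1 (27.8, 30.6 and 27.6 against 122, 104 and 116 CPM) and Ajuba (-1.03 ± 0.07), a LIM protein gene, were lower. For Ccn2 the DMSO level went from 17.6 CPM at day 4 to 100 CPM at day 6 while IAA stood at 12.2, 17.5 and 29.2 CPM at days 2, 4 and 6. Of 24 tested genes of the YAP list, 12 were higher, 7 were lower and 5 did not pass, with a median of 0.13, where 23.8% of all genes were higher and 22.8% lower. The gene model Gm15270 overlaps 23.2% of the exonic bases of Ccn2 on the other strand and was itself lower (-0.99).

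More interstitial matrix genes were lower than higher. Of the list of collagens and interstitial matrix, 4 of 31 tested genes were higher, 13 were lower and 14 did not pass, with a median log2 fold change of -0.25 (-0.44 without IAA day 4 replicate 2). Among all tested genes 23.8% were higher and 22.8% lower. The summed level of the list was not lower, at 1060 to 1080 CPM in IAA day 4 and 1010 to 1070 CPM in DMSO day 6. Lox, the enzyme gene that cross-links collagen, stood at 0.844, 0.463 and 0.237 CPM in IAA day 4 and 4.52, 4.16 and 4.33 CPM in DMSO day 6 (-3.10 ± 0.28). Bgn (biglycan) stood at 1.31, 0.555 and 0.711 against 5.57, 6.44 and 6.72 CPM (-2.84 ± 0.23), and Fbln2 (fibulin-2) at 3.38, 2.69 and 3.95 against 13.2, 14.8 and 14.4 CPM (-2.05 ± 0.14). For each of these the IAA libraries lay below the DMSO libraries. Col1a1 (-1.25 ± 0.10), Col3a1 (-0.68 ± 0.11) and Col6a3 (-2.14 ± 0.29) were lower, and the call of Col1a2 (-0.25 ± 0.09) was lost without IAA day 4 replicate 1 or 3 or DMSO day 6 replicate 1 (-0.21, -0.23 and -0.19), with DESeq2 (-0.23) and with no filter on low counts (-0.23). At day 6 in IAA, Col1a1 stood at 46.4 CPM and Col3a1 at 103 CPM, above their DMSO day 6 means of 21 and 19.7 CPM.

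Basement membrane genes were called in both directions. Laminin genes split between Lama1 (-0.67 ± 0.03, 1873, 1888 and 1872 against 2984, 3004 and 2993 CPM) and Lama5 (0.93 ± 0.05, 108, 111 and 98.4 against 57.1, 55.5 and 52.8 CPM), and the linker gene Nid1 was lower (-0.77 ± 0.04). Lama1 is the laminin chain of the early embryo's first basement membranes, and Lama5 the chain of mature epithelia. Of that list, 5 of 22 tested genes were higher, 9 were lower and 8 did not pass. Over all tested genes 23.8% were higher and 22.8% lower, so the count of higher genes lay near the share of all genes.

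Markers of fibroblasts, the feeder cells, leaned lower too. Of 20 marker genes 18 were tested, and 3 were higher, 9 lower and 6 did not pass, with a median of -0.44 (-0.25 when only the 6 libraries were fitted). Among all tested genes 23.8% were higher and 22.8% lower. Without IAA day 4 replicate 2 the number higher was 1. The summed level of the 20 genes ran from 99.1 to 105 CPM in IAA day 4 and from 130 to 136 CPM in DMSO day 6. Mmp3, a matrix protease gene, had 0 counts in IAA day 4 and 50 in DMSO day 6, at least 14.9-fold lower, or at least 9.36-fold without 1 IAA library. S100a4, the fibroblast-specific protein gene, had 0 counts and 25 counts, at least 7.44-fold lower (4.68-fold without 1 IAA library), and it shares 51.7% of its exonic bases with the gene model Gm42674 on its own strand. Dcn (decorin) had 5 counts against 55 (-3.17 ± 0.55), and Igfbp7 stood at 0.0938, 0.463 and 0.553 against 3.48, 3.57 and 3.13 CPM (-3.12 ± 0.32). In the earlier offset pair 3 of the markers were higher and 8 lower, with a median of -0.61, where 18.8% and 19.9% of all genes were. There the sums overlapped, at 69.3 to 77.5 CPM in IAA day 2 and 68.5 to 77.3 CPM in DMSO day 4, while Dcn, Fap, Lum, Mmp3 and S100a4 had 0 counts in IAA day 2. The part of feeder RNA in the lower matrix and antagonist genes was not tested. The largest adjusted p among the genes called in these paragraphs on YAP, matrix and fibroblasts, Col1a2 aside, was 0.000122 (edgeR quasi-likelihood F test, Benjamini-Hochberg adjustment).

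Among called genes of at least 5 CPM in 1 group whose libraries did not overlap, the highest fold change was that of Igf2, the fetal growth factor expressed from the paternal copy. It stood at 408, 412 and 411 CPM in IAA day 4 and 65.9, 69 and 64.5 CPM in DMSO day 6 (2.63 ± 0.05). H19, the maternally expressed non-coding RNA next to Igf2 on chromosome 7, stood at 132, 124 and 125 against 361, 336 and 362 CPM (-1.48 ± 0.06). The 2 neighbours thus differed in opposite directions, with no overlap of the groups for either. CTCF binding between them is known from textbooks to insulate Igf2 from shared enhancers on the maternal copy. In IAA, H19 stood at 34.8, 22, 127 and 354 CPM at days 0, 2, 4 and 6, against 77.9, 79.3, 179 and 353 CPM in DMSO, so its shortfall was smaller in the later offset pair than in the earlier one (difference 1.54 ± 0.10, adjusted p = 4.39e-17, edgeR quasi-likelihood F test with Benjamini-Hochberg adjustment). The gene model Gm49394 covers 62.8% of the exonic bases of Igf2 on the same strand and differed by 2.62. Igf2os, antisense to Igf2, differed by 2.51 ± 0.14, and its reads cannot be told from those of Igf2 where they overlap.

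Several other paternally expressed genes were higher as well. Plagl1, a zinc finger gene that acts on a network of imprinted genes, stood at 335, 298 and 317 CPM in IAA day 4 and 116, 118 and 113 CPM in DMSO day 6 (1.45 ± 0.06). Dlk1, a Notch-like ligand gene, stood at 76.2, 76 and 71 against 28.5, 28 and 27.9 CPM (1.40 ± 0.06). Peg3 stood at 2731, 2488 and 2532 against 1314, 1363 and 1280 CPM (0.97 ± 0.04), and Peg10, a placental gene of retroviral origin, at 1460, 1489 and 1452 against 664, 654 and 675 CPM (1.14 ± 0.04). All 4 lay above every DMSO library. The maternally expressed non-coding RNAs Meg3 (0.88 ± 0.04) and Rian (0.51 ± 0.04) of the Dlk1 locus were higher together with Dlk1, although the 2 sets are read from opposite parental copies. At the Igf2r locus the paternal antisense RNA Airn was higher (1.58 ± 0.14) and the receptor gene Igf2r lower (-0.45 ± 0.04), at 178, 186 and 188 against 251, 246 and 258 CPM. Of the imprinted list, 16 of 33 tested genes were higher, 8 were lower and 9 did not pass, with a median of 0.15. Among all tested genes 23.8% were higher and 22.8% lower, so the count of lower genes lay near the share of all genes. Among the imprinted genes with values above, the adjusted p was at most 2.31e-13 (edgeR quasi-likelihood F test, Benjamini-Hochberg adjustment).

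**Figure D4:**
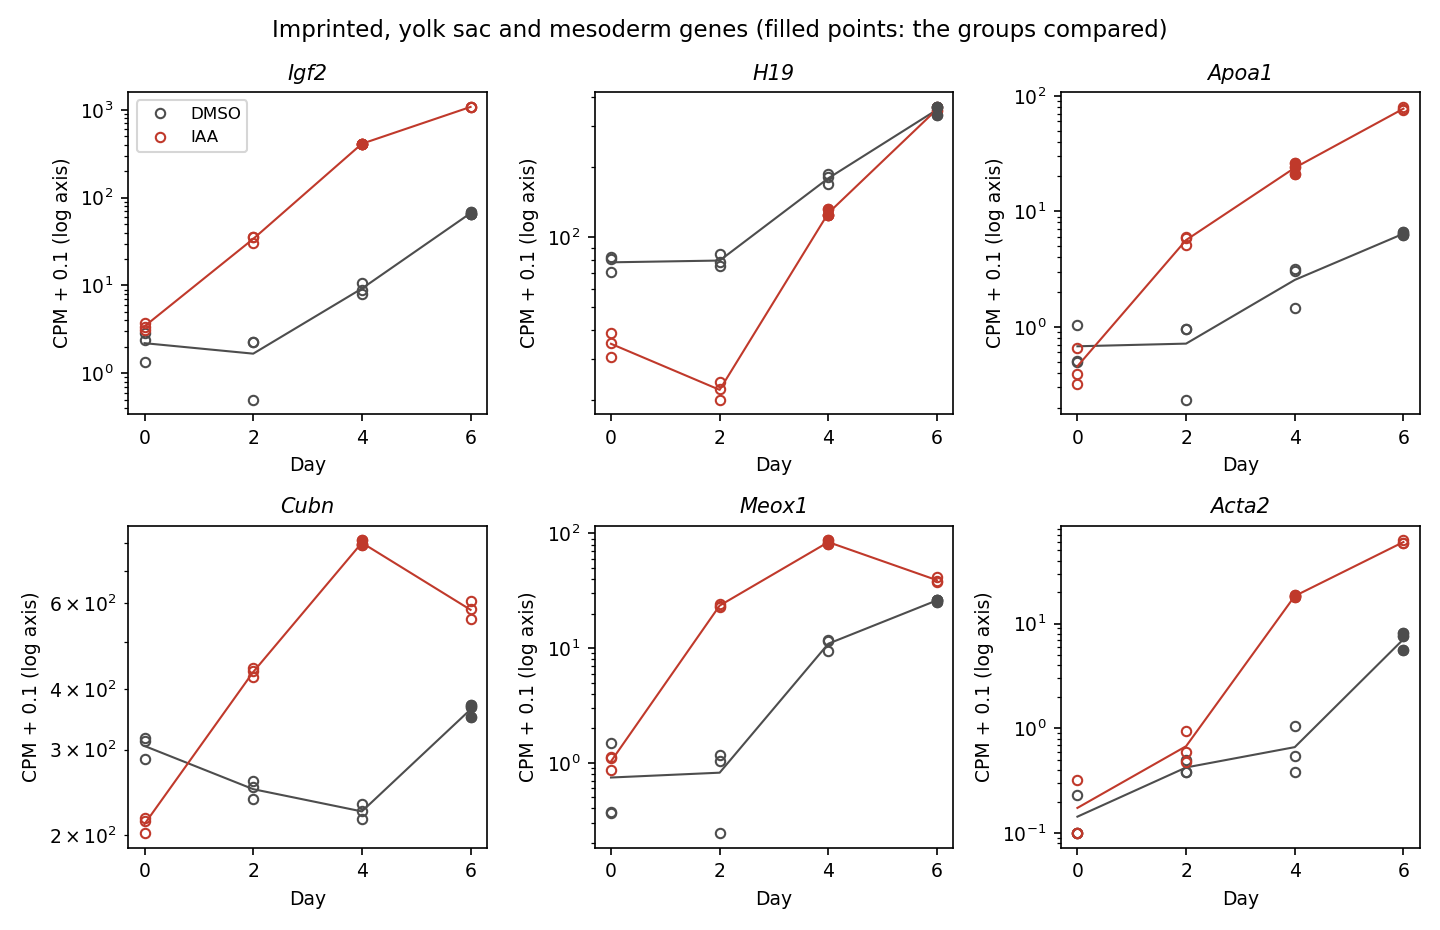
Level of 6 genes in each DMSO library (grey) and IAA library (red) at days 0, 2, 4 and 6 (x axis), as CPM + 0.1 on a log axis; lines join the group means and filled points are the groups compared. Igf2 in IAA day 4 stood at 410.2 CPM on average and in DMSO day 6 at 66.5 CPM, while H19 stood at 127 and 353 CPM.

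Many genes of the visceral endoderm, the yolk sac layer that feeds the early embryo, were higher. The lipoprotein gene Apoa1 stood at 23.9, 21.1 and 26.1 CPM in IAA day 4 and 6.09, 6.54 and 6.26 CPM in DMSO day 6 (1.92 ± 0.12). Apob, of the same kind, stood at 36.3, 32.1 and 30.2 against 8.58, 7.92 and 9.02 CPM (1.94 ± 0.09). Afp, alpha-fetoprotein, stood at 11.4, 15.1 and 12 against 2.78, 2.28 and 2.39 CPM (2.33 ± 0.16). In each of the 3 genes every IAA library was above every DMSO library of any day. Cubn, an uptake receptor of the yolk sac, stood at 793, 809 and 796 against 371, 350.1 and 367 CPM (1.14 ± 0.04), the carrier genes Ttr and Rbp4 differed by 1.61 ± 0.13 and 1.10 ± 0.11, and the fibrinogen gene Fgg by 2.33 ± 0.38. Of the list, 14 of 23 tested genes were higher, 3 were lower and 6 did not pass, with a median of 0.88 (1.04 without DMSO day 6 replicate 1). Among all tested genes 23.8% were higher and 22.8% lower. Pga5, a pepsinogen gene, went against the rest (-1.88 ± 0.09), and Amn, the partner of cubilin, did not pass (-0.08 ± 0.10).

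Transcription factor genes of the endoderm were called in both directions. Gata4 stood at 28.1, 30.5 and 28.4 CPM in IAA day 4 and 63, 57.8 and 62.8 CPM in DMSO day 6 (-1.08 ± 0.07), and Sox17 at 32.2, 32.9 and 32.2 against 60.2, 61 and 59.3 CPM (-0.89 ± 0.07). Both genes were lower with no overlap between the groups. Foxa2 was lower (-0.38 ± 0.08) and its relative Foxa1 higher (1.48 ± 0.11). Of 13 tested endoderm factors and early markers, 3 were higher, 6 were lower and 4 did not pass. With 23.8% of all genes higher and 22.8% lower, the count of higher genes lay near the share of all genes. No adjusted p among endoderm genes called in the text was above 0.000112 (edgeR quasi-likelihood F test, Benjamini-Hochberg adjustment).

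Most listed mesoderm and smooth muscle genes were higher. Meox1, a somite factor, stood at 87.2, 83 and 81.4 CPM in IAA day 4 and 25.3, 26.4 and 26.3 CPM in DMSO day 6 (1.69 ± 0.07). Foxf1, a factor of the lateral mesoderm, stood at 10.4, 10.1 and 10.4 against 4.41, 4.56 and 5.61 CPM (1.10 ± 0.15), and its divergent non-coding neighbour Fendrr at 1.59, 2.04 and 2.21 against 0.29, 0.495 and 0.276 CPM (2.48 ± 0.40). The VEGF receptor gene Kdr stood at 26.9, 25.6 and 27.4 against 10.7, 11.1 and 8.38 CPM (1.40 ± 0.10). In these 4 genes the IAA libraries were all above the DMSO libraries. Osr1 (1.45 ± 0.23) and Twist1 (1.12 ± 0.16), factors of intermediate and migrating mesoderm, were higher too. Of the streak and mesoderm list, 11 of 17 tested genes were higher, 1 was lower and 5 did not pass (2 were lower without IAA day 4 replicate 1), and the median of 0.68 ran from 0.45 without DMSO day 6 replicate 2 to 0.94 without IAA day 4 replicate 1. The shares over all tested genes were 23.8% higher and 22.8% lower.

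Acta2, smooth muscle actin, stood at 17.8, 18.3 and 18.6 CPM in IAA day 4 and 5.45, 8.02 and 7.55 CPM in DMSO day 6 (1.43 ± 0.12). Tagln, an actin-binding protein gene of smooth muscle, stood at 44.5, 50.8 and 43.6 against 24, 25.6 and 22.4 CPM (0.95 ± 0.07), Cnn1 (calponin) at 9.38, 10 and 10 against 4.12, 3.57 and 3.96 CPM (1.32 ± 0.13) and Des (desmin) at 18.1, 15.8 and 16.1 against 6.38, 6.14 and 6.17 CPM (1.41 ± 0.11). None of these overlapped between the groups. Of the SRF and smooth muscle list, 16 of 20 tested genes were higher, 1 was lower and 3 did not pass, with a median of 0.58. Among all tested genes 23.8% were higher and 22.8% lower. Of the list's genes called higher, 15 lay above all 12 DMSO libraries, beside 13.5% of all tested genes called higher and so placed. Myh11, the myosin of mature smooth muscle, did not pass (0.21 ± 0.15). Actc1, cardiac actin, was higher at low levels (5.34, 4.72 and 3.24 against 0.58, 0.792 and 0.828 CPM, 2.61 ± 0.29), as were the endothelial genes Emcn (2.69 ± 0.51) and Etv2 (1.80 ± 0.40) and the blood and vessel factor gene Tal1 (2.06 ± 0.42). Myh7, a cardiac myosin, was lower (-1.35 ± 0.20). Of the cardiac muscle and blood vessel list, 8 of 21 tested genes were higher, 7 were lower and 6 did not pass. That list was thus called in both directions, where 23.8% of all genes were higher and 22.8% lower. Haemoglobin genes gave no counts in IAA day 4 for Hba-a1, Hba-a2, Hbb-bh1, Hbb-bs and Hbb-bt. In DMSO day 6 Hbb-bh1, Hbb-bs and Hbb-bt had no counts either. Of 18 blood markers 7 could be tested, of which 1 was higher and 1 lower. At most, the adjusted p among the mesoderm and muscle genes called was 0.000213 (edgeR quasi-likelihood F test, Benjamini-Hochberg adjustment).

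Many epithelial genes were higher at the same time. Cdh1 (E-cadherin), which holds epithelial cells together, stood at 319.7, 322 and 309 CPM in IAA day 4 and 133, 126 and 138 CPM in DMSO day 6 (1.26 ± 0.04). It had been higher in IAA from day 0 (1.03 ± 0.04). Krt18 stood at 139.7, 144 and 142 against 59.9, 61.4 and 64.2 CPM (1.20 ± 0.05), and its keratin partner Krt8 at 159.7, 152 and 146 against 75.6, 78.2 and 74.8 CPM (1.00 ± 0.05), with no overlap. Krt19 (1.31 ± 0.08), the claudins Cldn4 (1.39 ± 0.14) and Cldn6 (1.36 ± 0.08) and P-cadherin (Cdh3, 1.59 ± 0.18) were higher. Of the epithelial list, 15 of 26 tested genes were higher, 3 were lower and 8 did not pass, with a median of 0.49. For this list and the next, the shares over all tested genes were 23.8% higher and 22.8% lower. Of 16 tested trophectoderm genes 8 were higher and 0 lower, and 1 was lower with no filter on low counts or when only the 6 libraries compared or the 24 DMSO and IAA libraries were fitted. In that list Gata3 (1.48 ± 0.12), Krt7 (1.18 ± 0.18) and the placental gene Plac1 (1.42 ± 0.18) were higher, while Cdx2, the factor that founds the lineage, stood at 0.375, 0.555 and 0.474 CPM and 0.232, 0.297 and 0.276 CPM and did not pass. The largest adjusted p among the epithelial and trophectoderm genes called was 4.58e-07 (edgeR quasi-likelihood F test, Benjamini-Hochberg adjustment).

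Neural genes leaned lower: 3 of 23 tested genes were higher, 9 were lower and 11 did not pass, with a median of -0.26. Stmn2, a neuronal microtubule gene, stood at 8.44, 9.72 and 8.93 CPM in IAA day 4 and 16.6, 17.2 and 13.7 CPM in DMSO day 6 (-0.82 ± 0.11), and Pax6 (-0.59 ± 0.07) and Tubb3 (-0.49 ± 0.11) were lower. The neural progenitor genes Sox11 (1.51 ± 0.06) and Nes (0.77 ± 0.07) were higher. Hox genes, which set position along the body axis, were higher in 13 and lower in 7 of 34 tested, with a median of 0.31. Over all tested genes 23.8% were higher and 22.8% lower. Hoxc8 stood at 31.3, 32 and 33.9 against 17.1, 13.6 and 13 CPM (1.13 ± 0.09) and Hoxc6 at 9.85, 9.63 and 8.69 against 2.78, 3.17 and 4.51 CPM (1.46 ± 0.16), both above all DMSO libraries. Retinoic acid, a vitamin A derivative, induces Hox genes. Of the genes of 3 enzymes that make it, Aldh1a1 (1.51 ± 0.10) and Aldh1a2 (1.13 ± 0.11) were higher, and Aldh1a3, with the largest change of the pathway list, was lower (-1.70 ± 0.42, at 0.188, 0.37 and 0.395 against 1.04, 1.29 and 0.92 CPM). The receptor gene Rarb was higher (0.85 ± 0.05), and its exons overlap those of Top2b, which is read on the other strand. Of 20 genes of that pathway 11 were higher and 5 lower, with 3 lower without IAA day 4 replicate 1 or 3 or DMSO day 6 replicate 1 or 2. Among the genes called here, the adjusted p was at most 0.000823 (edgeR quasi-likelihood F test, Benjamini-Hochberg adjustment).

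Pluripotency genes were called in both directions. Pou5f1, whose levels are given above, was higher in IAA day 4 (0.37 ± 0.04). Sox2 stood at 90.8, 84.6 and 93.5 CPM in IAA day 4 and 79.5, 86.2 and 84.5 CPM in DMSO day 6 and did not pass (0.11 ± 0.06). Nanog, which encodes the third core factor, stood at 16.9, 13.9 and 15 against 17, 20.3 and 21.1 CPM and was lower (-0.33 ± 0.09). In the earlier offset pair Nanog had been higher (0.48 ± 0.07), and the difference between the pairs passed (-0.81 ± 0.12, adjusted p = 7.37e-07, edgeR quasi-likelihood F test with Benjamini-Hochberg adjustment). Nr0b1 (-1.47 ± 0.15), Otx2 (-1.18 ± 0.24) and Klf2 (-0.76 ± 0.13) were lower and below all DMSO libraries. Tdgf1, the Nodal co-receptor gene, stood at 16.4, 17.4 and 19.4 against 9.1, 10.9 and 9.29 CPM (0.88 ± 0.10), and the RNA-binding protein genes Lin28a (0.68 ± 0.05) and Trim71 (0.80 ± 0.05) were higher. Of 15 core pluripotency genes 5 were higher and 5 lower, or 3 lower without DMSO day 6 replicate 2, and of 21 naive genes 6 were higher and 6 lower. The shares over all genes were 23.8% higher and 22.8% lower. Called in either direction were 66.7% of the core and 57.1% of the naive genes, beside 46.6% of all genes. No adjusted p among the pluripotency genes called was above 0.00315 (edgeR quasi-likelihood F test, Benjamini-Hochberg adjustment).

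Most glycolysis genes were higher and most ribosomal protein genes lower. Of the glycolysis and hypoxia list, 23 of 28 tested genes were higher, 2 were lower and 3 did not pass, with a median of 0.64. Among all tested genes 23.8% were higher and 22.8% lower. Ldha (lactate dehydrogenase) stood at 457, 452 and 448 CPM in IAA day 4 and 229, 212 and 209.5 CPM in DMSO day 6 (1.06 ± 0.04), and Eno1 (enolase) at 469, 468 and 499 against 243, 235 and 238 CPM (1.00 ± 0.04). Pgk1 (0.79 ± 0.05), Egln3 (1.21 ± 0.11), an oxygen sensor gene, and Bnip3 (0.69 ± 0.06) were higher, and each of these genes lay above all 12 DMSO libraries. At day 0 the same list already had 24 genes higher and 2 lower in IAA than in DMSO, with a median of 0.91, where 21.3% and 23.2% of all genes were called. P4ha2, which modifies collagen, went against the rest (-1.16 ± 0.04).

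Of 13 mitochondrially encoded mRNAs 11 were higher and 1 lower, with a median of 0.53. Among all tested genes 23.8% were higher and 22.8% lower. mt-Co1 stood at 5501, 5888 and 5838 CPM in IAA day 4 and 4085, 3807 and 4122 CPM in DMSO day 6 (0.52 ± 0.04). The exception mt-Nd3 stood at 3.66, 3.61 and 3 against 28.2, 4.75 and 5.71 CPM (-2.10 ± 0.48), and without DMSO day 6 replicate 1 it no longer passed (-0.61). Nuclear genes of the respiratory chain leaned the other way: 4 of 76 tested genes were higher, 35 were lower and 37 did not pass, with a median of -0.14.

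Of 83 cytosolic ribosomal protein genes 6 were higher and 64 lower, with a median of -0.24, and 58 of those lower lay below all DMSO libraries. Among all tested genes 23.8% were higher and 22.8% lower, and 10.5% were called lower and lay below all 12 DMSO libraries. Rps27 stood at 58.3, 51.9 and 55.9 CPM in IAA day 4 and 96.3, 90.8 and 97.5 CPM in DMSO day 6 (-0.78 ± 0.06), and Rpl37 at 195, 199.9 and 197 against 313, 302 and 315 CPM (-0.65 ± 0.05). Ribosomal protein genes have many processed copies, so their reads may be split between near-identical sequences. Of 20 tRNA synthetase genes 5 were higher, near the share of all genes, and 14 lower, or 9 lower without DMSO day 6 replicate 1. Of the integrated stress response list, which holds targets of the stress factor ATF4, 4 of 28 tested genes were higher, 13 were lower and 11 did not pass, with a median of -0.18. Nupr1 stood at 1.88, 1.94 and 1.98 against 13.6, 16.7 and 15 CPM (-2.94 ± 0.15), Atf3 at 4.03, 4.81 and 4.19 against 15.3, 18.5 and 14.9 CPM (-1.89 ± 0.12), and Pck2 was lower (-1.14 ± 0.08), while Slc7a11, the cystine transporter gene, was higher (1.78 ± 0.44). In the earlier offset pair the same list had 14 genes higher and 4 lower, where 18.8% and 19.9% of all genes were, and 16 of its genes had a lower log2 fold change in the later pair by the test of the difference, against 8.07% of all genes.

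Genes of cholesterol synthesis and uptake differed between the offset pairs. In the later pair 6 of 26 were higher and 8 lower, with Fdft1 (squalene synthase, -0.85 ± 0.05) at the low end. Those counts lay near the share of all genes, 23.8% higher and 22.8% lower. In the earlier pair 20 were higher and 1 lower, where 18.8% and 19.9% of all genes were. The test of the difference called 22 of the 26 lower in the later pair, against 8.07% of all genes. At most, the adjusted p among the metabolic and stress genes called was 0.000684 (edgeR quasi-likelihood F test, Benjamini-Hochberg adjustment).

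**Figure D5:**
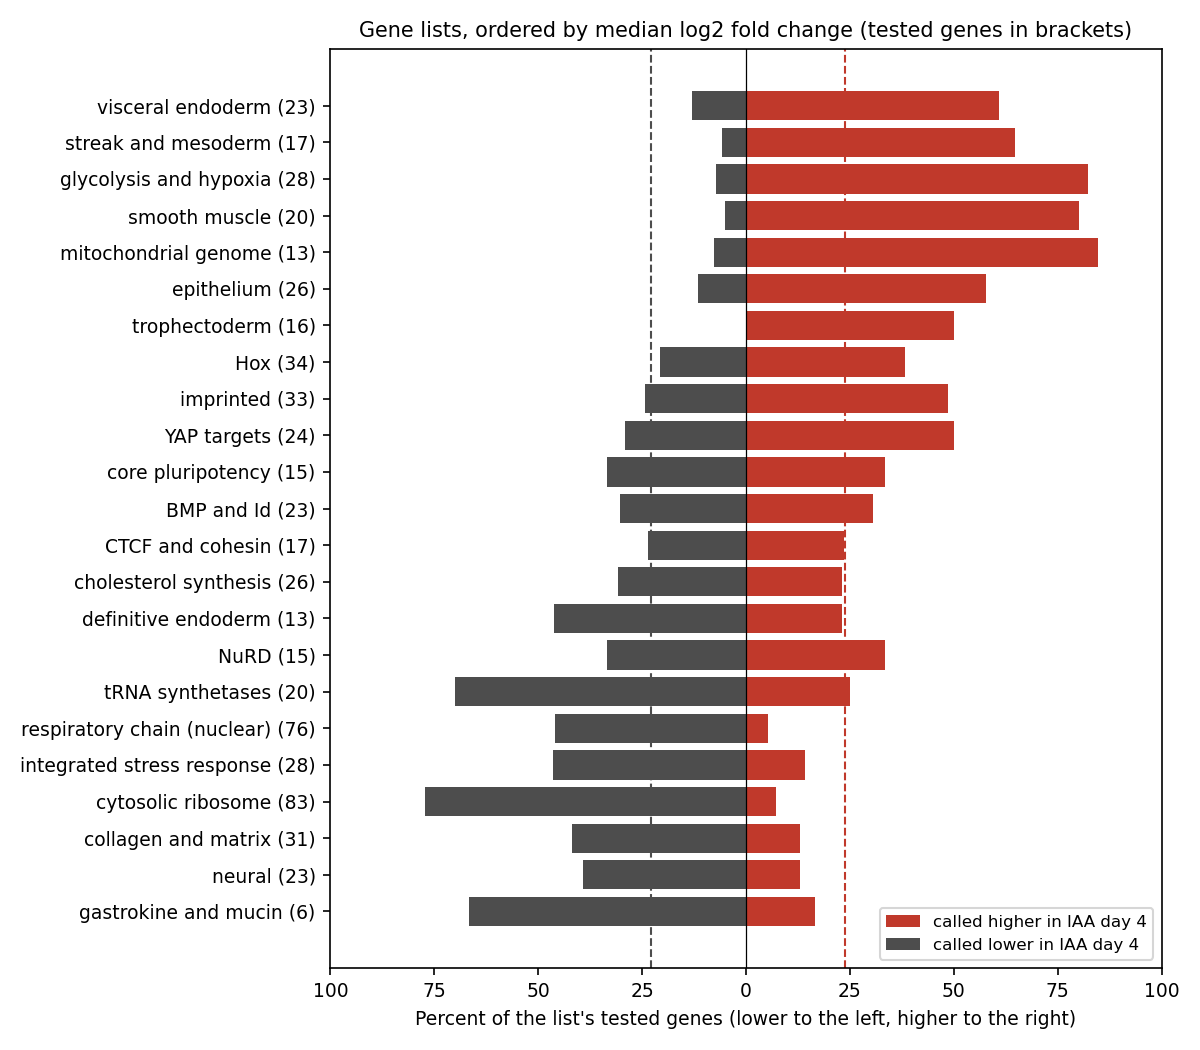
Percent of the tested genes of 23 lists called higher (right, red) and lower (left, grey) in IAA day 4 than in DMSO day 6, ordered by the median log2 fold change; dashed lines give the share over all tested genes, 23.8% higher and 22.8% lower. Smooth muscle (16 of 20) and glycolysis (23 of 28) stood far to the right and cytosolic ribosome (64 lower of 83) far to the left, while CTCF and cohesin genes (4 higher and 4 lower of 17) lay near the share of all genes.

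Genes of the machinery named in the series title were called in both directions, NuRD genes by less than 2-fold. Ctcf stood at 292, 303 and 313 CPM in IAA day 4 and 285, 295 and 292 CPM in DMSO day 6 and did not pass (0.06 ± 0.04), a value for mRNA that says nothing of protein. Of 15 NuRD subunit genes 5 were higher, 5 lower and 5 did not pass, where 23.8% of all genes were higher and 22.8% lower. The histone-binding subunit gene Rbbp7 stood at 653, 654 and 620.1 against 399, 399.7 and 425 CPM (0.66 ± 0.04) and its relative Rbbp4 at 244, 219.9 and 230.1 against 249, 249 and 260.2 CPM (-0.13 ± 0.05), the latter no longer past the threshold without IAA day 4 replicate 2 or DMSO day 6 replicate 3 (-0.10 and -0.10) or with no filter on low counts (-0.11). The remodeller genes split into Chd4, higher (0.39 ± 0.04), and Chd3, lower (-0.37 ± 0.05), with Chd5 not past the threshold (0.15 ± 0.11). Gatad2a (0.33 ± 0.04), Gatad2b (0.40 ± 0.05) and Mta1 (0.32 ± 0.04) were higher, and the deacetylase gene Hdac1 (-0.39 ± 0.05), Mbd3 (-0.22 ± 0.04) and Cdk2ap1 (-0.28 ± 0.06) lower. Hdac2 (-0.06 ± 0.10), Mta2 (-0.07 ± 0.05), Mta3 (-0.05 ± 0.04) and Mbd2 (-0.10 ± 0.06) did not pass.

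Among cohesin genes, Wapl, which releases cohesin from DNA, stood at 459.7, 481 and 457 CPM in IAA day 4 and 278, 307 and 298 CPM in DMSO day 6 (0.66 ± 0.04), a difference also seen at day 0 (0.67 ± 0.04). Esco2, which locks cohesin during replication, stood at 56.8, 58 and 60 against 104, 117 and 102 CPM (-0.88 ± 0.06). The core subunit genes Smc1a (-0.11 ± 0.05) and Rad21 (-0.07 ± 0.04) did not pass. Of the DNA methylation list, 6 of 13 tested genes were higher, 3 were lower and 4 did not pass. The count of lower genes lay near the share of all genes (23.8% higher and 22.8% lower). The de novo methyltransferase genes split into Dnmt3a, higher (0.56 ± 0.04), and Dnmt3b, lower (-0.79 ± 0.05), and the demethylation genes Tet1 (0.68 ± 0.05) and Tet2 (0.98 ± 0.05) were higher. The largest adjusted p among the chromatin genes called was 0.0174 (edgeR quasi-likelihood F test, Benjamini-Hochberg adjustment).

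Some of the remaining genes with the highest fold changes were of transport and secretion. Slc4a9, a bicarbonate transporter gene, stood at 17.4, 19.3 and 19.2 CPM in IAA day 4 and 4.41, 3.07 and 2.85 CPM in DMSO day 6 (2.37 ± 0.15), and Pigr, which carries antibodies across epithelia, at 12.1, 12.5 and 11.7 against 2.73, 2.18 and 3.4 CPM (2.12 ± 0.15). Slc16a12 (2.12 ± 0.21), a carrier of the monocarboxylate transporter family, Clca1 (2.17 ± 0.22), a secreted regulator of chloride channels, and Pcsk1 (1.81 ± 0.21), a hormone-processing protease gene, were higher as well. All 5 lay above every DMSO library, and their largest adjusted p was 3e-10 (edgeR quasi-likelihood F test, Benjamini-Hochberg adjustment).

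The test of whether a difference changed between the 2 offset pairs called 1504 genes whose log2 fold change was higher in the later pair (8.65%) and 1403 whose change was lower (8.07%). The 6 with the smallest p were Hkdc1, Plagl1, Meg3, Sema4g, Ccn2 and Peg3. Hkdc1, a hexokinase-like gene, was lower in IAA in the earlier pair (-1.96 ± 0.07) and in the later one (-0.28 ± 0.05), at 97.6, 96.6 and 95.7 CPM in IAA day 4 and 118, 124 and 110.3 CPM in DMSO day 6. Sema4g, a semaphorin gene, was lower in the earlier pair (-0.52 ± 0.07) and higher in the later one (1.03 ± 0.05), at 68.6, 70.7 and 70.5 against 33.6, 35.5 and 33.7 CPM. Plagl1 and Meg3 likewise turned from lower (-0.43 ± 0.09 and -0.17 ± 0.05) to higher, and Peg3 did not pass in the earlier pair (0.05 ± 0.04). Of the 8097 genes called between IAA day 4 and DMSO day 6, 2064 had a difference that changed between the pairs, beside 2907 (16.7%) of all tested genes. Both contrasts use the IAA day 4 and DMSO day 6 libraries, so this overlap is a description and no result. The largest adjusted p of the change over these 6 genes was 6.58e-18 (edgeR quasi-likelihood F test, Benjamini-Hochberg adjustment).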

How the data were processed

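Poly(A) RNA of 36 libraries (12 groups of 3) was analysed. What the authors deposited is a single table of unnormalized counts per gene, with 55335 genes. Per the submitters' processing notes, FastQC 0.11.7, HISAT2 2.1.0, featureCounts 2.0.1, DESeq2 (version not given) and the mm10 build were used. The sources used here do not give the strand setting, the annotation or the handling of reads with several matches. Sample groups came from the labels, and each column matched 1 sample title.

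Genes were kept by filterByExpr of edgeR 4.0.16 (R 4.3.3, limma 3.58.1) with a minimum count of 10 and a minimum total of 15, which left 17394. One quasi-likelihood fit (glmQLFit, glmQLFTest, TMM scaling) of all 36 libraries with 1 term per group gave each contrast, and p-values were adjusted by Benjamini and Hochberg over all tested genes at 0.05. The test was checked on simulated counts. The contrast between the offset pairs is the difference of their log2 fold changes. CPM used TMM-scaled totals. A gene with 0 counts was set to a floor of 3 counts over the group, and ratios of low counts have 95% exact intervals. Reads carried no molecular identifiers, so floors and intervals cover counting error only. Alternatives were scaling by size factors (RLE), DESeq2 1.42.0, other filters, fits of 6 or 24 libraries, a replicate block and leaving out each library. Leaving out libraries for the distances, collagen and mitochondrial values was added after seeing the data.

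Replicate numbers are shared by the groups, but the deviations of same-numbered libraries from their group means correlated at -0.0125, -0.00878 and 0.0147, so the numbers were not taken to pair libraries. The members of the comparison and the gene lists were chosen with earlier results of these data known. Named genes were the 15 highest and 15 lowest fold changes among called genes of 5 CPM or more in either group whose libraries did not overlap and whose names are not those of predicted genes or clones. Added to them were up to 6 genes per list described with the largest change and any that went against their list, Ctcf and the NuRD subunits, the 8 highest and 8 lowest genes of the first kind outside all DMSO libraries and called the same way in the 3 pairs, and the 6 smallest p-values of the contrast between the offset pairs. Other genes named were chosen after their values were seen, and some genes that the rule names are not reported here. Promoter windows are from RefSeq on GRCm38.p6, and gene positions and exon overlaps from GENCODE M21.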

Additional observations from a re-analysis of the deposited data

Results flagged for a closer look

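The difference between IAA and DMSO changed from the earlier offset pair (IAA day 2 against DMSO day 4) to the later one in 1504 genes towards higher and 1403 towards lower, by the test of the difference itself (edgeR quasi-likelihood F test, Benjamini-Hochberg adjustment). In 4 of the 6 genes with the smallest p the change was 1.68 on the log2 scale for Hkdc1, 1.55 for Sema4g, 1.88 for Plagl1 and -1.97 for Ccn2, and in the imprinted genes Meg3, Peg3 and Rian it was 1.05, 0.92 and 0.75. Dppa3, a naive pluripotency and germ cell gene, was lower in the earlier pair (-1.09 ± 0.17) and higher in the later one (0.92 ± 0.13), a change of 2.01. Nanog changed by -0.81 the other way. Gstm1, a glutathione transferase gene, went from -0.31 ± 0.12 to 1.10 ± 0.08, a change of 1.41, and the BMP target Id1 from -0.51 ± 0.11 to 0.19 ± 0.07, a change of 0.70. Chac1, an ATF4 target that breaks down glutathione, went from 0.98 ± 0.19 to -0.97 ± 0.21, a change of -1.94. The tRNA synthetase gene Farsb, the collagen gene Col1a2, the NuRD gene Cdk2ap1 and the retinoic acid-degrading enzyme gene Cyp26a1 changed by -0.55, -0.78, -0.60 and -0.20. The largest adjusted p of the change among these genes was 0.00828 (edgeR quasi-likelihood F test, Benjamini-Hochberg adjustment). The causes of these changes were not tested.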

How the results depend on the processing

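The count of genes higher in IAA day 4 than in DMSO day 6 was 4281 with RLE scaling, 3705 with DESeq2, 4084 without a filter and 3607 to 3960 when 1 library was left out, beside 4133. The count lower was 3773, 3255, 3454 and 3301 to 3615 in the same order, beside 3964. Of the 8097 calls, 6766 to 8090 were made in the same direction under each alternative and 0 in the opposite one. With the replicate block 4115 genes were higher and 3952 lower. Same-numbered libraries did not deviate together, so the numbers gave no ground for pairing them. DMSO day 6 was the nearest DMSO group with genes of at least 5 CPM (0.424), by 1 minus Spearman's correlation (0.0178) and without any 1 IAA day 4 library (0.532 to 0.535). Among named genes, 4 that did not pass changed sign when 1 library was left out. Chrd ran from -0.53 (without IAA day 4 replicate 3) to 0.42, Id3 from -0.19 to 0.0071, Mta3 from -0.091 to 0.011 and Hdac2 from -0.091 to 0.016. Genes of a few CPM, such as Nog, Lox and Chrd, are limited by depth.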

Other observations

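FGF signalling genes other than Fgf3 were mostly higher or did not pass. Of 22 tested ligands, receptors and feedback genes 10 were higher and 4 lower. The ERK-induced genes Etv4 (0.88 ± 0.23) and Dusp6 (0.85 ± 0.08), a transcription factor and a phosphatase that dampens ERK, were higher, and Spry2, another feedback inhibitor, was lower at 6.75, 7.31 and 7.58 against 15.2, 12.9 and 15 CPM. Of 25 NRF2 targets and glutathione enzyme genes 13 were higher and 3 lower, with Gsta3 at 2.16, 2.22 and 1.66 CPM in IAA day 4 and 0.928, 0.891 and 0.828 CPM in DMSO day 6. Of 27 genes of p53 and its targets 3 were higher and 7 lower, of 26 Polycomb genes 7 were higher and 6 lower, and of 34 replication-dependent histone genes 6 were higher and 5 lower, where 23.8% of all tested genes were higher and 22.8% lower. The adjusted p of the genes named here was at most 0.00304 (edgeR quasi-likelihood F test, Benjamini-Hochberg adjustment).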
